A study of Rattus norvegicus with 20 samples.

Results

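The lungs of 12 control rats that had breathed air were examined on their own, out of 20 arrays in the series. They were chosen by their label as controls and by no rule on array values, though earlier results of these data were known. Each was a male CDF Fisher 344 rat aged 3 months, from a laboratory strain, housed with free food and water. The labels give the exposure as 6 h per day on 5 days and the killing as 16 h after the last exposure. Total lung RNA, 375 ng per sample, was labelled with biotin and hybridised to an Illumina rat bead array, 1 array per rat. No label says which part of the lung was taken. The rats carried identifiers in 3 runs of 4 consecutive numbers, namely 89 to 92, 105 to 108 and 137 to 140. What these runs stand for is not stated in the labels, so they are used here only as groups of neighbouring identifiers. Since each rat had 1 array, differences between animals and differences between RNA preparations or arrays cannot be told apart.

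The lung is a mixture of many cell types. Flat alveolar type 1 cells form the gas exchange surface, and cuboidal type 2 cells make surfactant, the lipid and protein film that keeps alveoli open. Airways are lined by secretory and ciliated cells, a dense capillary bed runs through the walls, and resident macrophages clear what is inhaled. In rodents, heart muscle sleeves the pulmonary veins, and mesothelium covers the lung's surface.

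The background level inferred from the intensities and their detection p-values was 51.34 to 74 intensity units, highest on the array of rat 139. Between 9434 genes (rat 139) and 10840 genes (rat 108) had a detection p-value under 0.01, which compares a gene's signal with that of control beads carrying no rat sequence. Median bead number per gene lay between 41 and 43, and median raw intensity between 67.08 and 97.33. Over all genes detected on the 12 arrays, the 66 pairs of arrays correlated at r = 0.985 to 0.996. Of 21792 genes in the table, 8932 were detected on all 12 arrays, and 10062 on none. The number of detected genes had means of 10410, 10330 and 9926 in rats 89 to 92, 105 to 108 and 137 to 140, a difference within the spread between animals (exact permutation test over 34650 assignments, p = 0.23). All values below are log2 intensities after background correction and quantile normalisation, where a difference of 1 is a change of 2-fold, unless a raw intensity is named. Probes differ in how well they bind, so a bright gene is described as a bright signal and not as the more abundant transcript.

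The lung label was checked against defining markers. All 12 measured type 2 cell markers were detected on every array. The surfactant proteins gave bright signals, with Sftpa1 at 14.37 ± 0.13 (SD, n = 12), Sftpc at 14.06 ± 0.10 and Sftpb at 13.88 ± 0.15. Of 9 measured type 1 cell markers, 8 were detected on every array. Hopx, a transcription cofactor, reached 14.35 ± 0.07, and Ager, the receptor for glycated proteins that is typical of type 1 cells, 12.97 ± 0.10. All 12 endothelial and all 14 fibroblast and matrix genes were detected on every array as well. Secretoglobin Scgb1a1, the main product of airway club cells, stood at 14.27 ± 0.09.

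Markers of some other tissues were checked as well. None of 10 cartilage genes was detected on all 12 arrays, and 9 of them were above background on none. Of 7 skeletal muscle genes, 5 were above background on none, and 1 or 2 were detected on each array. Of 10 fat cell genes, 6 were above background on none, Adipoq, Plin1 and Lep among them, and Cidec was detected on 8. The other 3 were detected on every array, with Cfd at 9.97 ± 0.14 (SD, n = 12), Lipe at 9.14 ± 0.24 and Cidea at 6.73 ± 0.27. Over all genes, 10062 of 21792 were detected on no array. With so few genes on a list, the skeletal muscle and fat cell counts are no result about these tissues. A value of 0 detections cannot be read as absence of a transcript. Of 112 ribosomal protein genes, 26 were above background on no array. Of the neutrophil genes, S100a9 was detected on 0 arrays and S100a8 on 12. Genes with several probes have a further limit. Several probes stand behind 683 genes, whose deposited p-values are joint ones, and 54 of these genes were brighter than the median detected gene (8.44) without counting as detected on all arrays, against 0 genes with 1 probe. Myh11, the smooth muscle myosin heavy chain, was one of them, at 9.50 to 10.07 with no array called.

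Array signal was spread over many genes rather than held by a few. The 20 brightest named genes had means of 14.11 to 14.55, and whether signal levelled off at the top was not tested. Shares of signal are therefore not read as shares of lung RNA. The 10 brightest genes carried 2.30% of the summed background-corrected signal (median of 12 arrays), the 100 brightest 16.5%, and the 500 brightest 43.6%. The genes detected on all arrays carried 97.5%. Translation led the list. The 112 measured ribosomal protein genes made up 7.10% of the signal, between 6.76% and 7.41% on single arrays, and 27 of them were among the 100 brightest genes. The 62 subunits of mitochondrial oxidative phosphorylation followed with 1.89%.

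Of the gene groups that mark a cell type, the 12 type 2 cell genes carried a median of 0.929% of the signal (0.834% to 1.03%). The 14 fibroblast and matrix genes carried 0.833% (0.765% to 0.966%) and exceeded them in rats 90, 105, 106 and 108, led by Mgp and Col1a2. The 10 genes of MHC class I and II, which present antigen, carried 0.646%, and the 9 type 1 cell genes 0.482%. The 7 red cell genes carried 0.478% with Hbb and Hba-a2 among the 100 brightest genes. Smaller shares were 0.0839% for 8 alveolar macrophage genes and 0.0320% for 12 T cell genes. The share of type 1 cells kept within 0.448% to 0.494%. The share of the 12 heart muscle genes ran from 0.00231% to 0.0752%. The plot of signal by gene list shows this contrast.

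**Figure D1:**
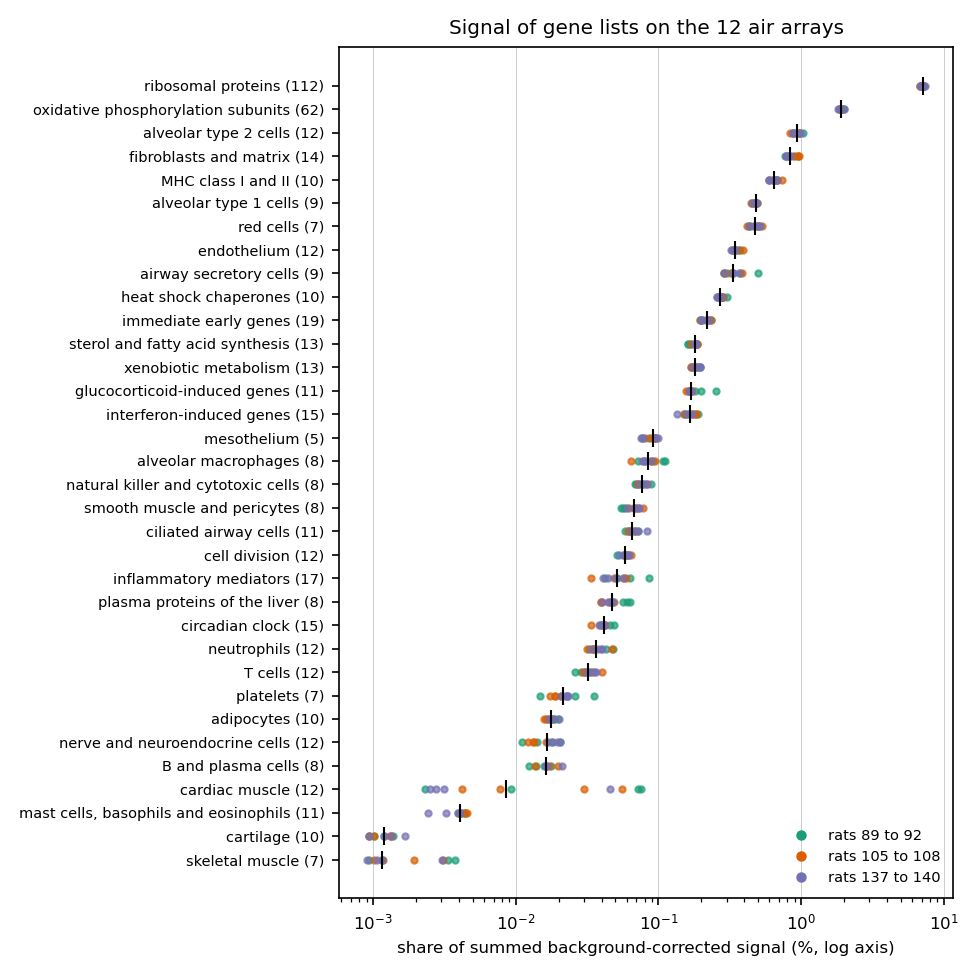
Share of the summed background-corrected signal taken by each gene list (horizontal log axis, percent) on each of the 12 air arrays; points are rats coloured by identifier run, vertical ticks are medians, and the number of measured genes stands in brackets. Ribosomal proteins lie near 7.10% on every array, while the heart muscle list spreads from 0.00231% to 0.0752%.

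Quantile normalisation gives every array the same top values, so the SDs of the brightest genes are bounded by the scaling and do not show how steady these genes were. Tpt1, a small protein tied to growth and translation, was the brightest at 14.55 ± 0.05 (SD, n = 12), with raw intensities of 18100 to 33100. Fth1, the iron-storing ferritin heavy chain, stood at 14.47 ± 0.09, and Rplp0, a protein of the ribosomal stalk, at 14.47 ± 0.06. Beta haemoglobin (Hbb) stood at 14.45 ± 0.06 and the alpha chain (Hba-a2) at 14.37 ± 0.15. B2m, the light chain of MHC class I, followed at 14.41 ± 0.07, and Eef1a1, which delivers amino acids to the ribosome, at 14.40 ± 0.08. Plvap, a protein of the diaphragms of capillary endothelium, was at 14.31 ± 0.10, Igfbp7, a binding protein secreted by vessels and stroma, at 14.30 ± 0.09, and Gsn, the actin-severing gelsolin, at 14.24 ± 0.08. The others among the 20 brightest were Rpl23a, Rpl41, Rps27, Rpl9, Rpl3, Rps4x and Ppia besides Sftpa1, Hopx and Scgb1a1. Their SDs lay between 0.05 and 0.15.

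Variation between the 12 animals was small for most genes. The median SD over the 8932 genes was 0.137, with 5% of genes under 0.071 and 5% over 0.296. The highest and lowest rat differed by more than 2-fold in 446 genes (4.99%) and by more than 4-fold in 25. The SD exceeded 1 in 9 genes. The error expected from the beads of 1 array, computed from the deposited bead standard errors, had a median of 0.052. The SD between animals was above 2 times that error in 71.1% of genes and below it in 0.56%. The bead error leaves out labelling and hybridisation, so an SD above it can come from the arrays as well as from the animals. Dim genes varied more. When genes were ranked by brightness in 10 equal bins, the dimmest bin had a median SD of 0.184 beside a bead error of 0.098, and the brightest 0.099 beside 0.038.

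**Figure D2:**
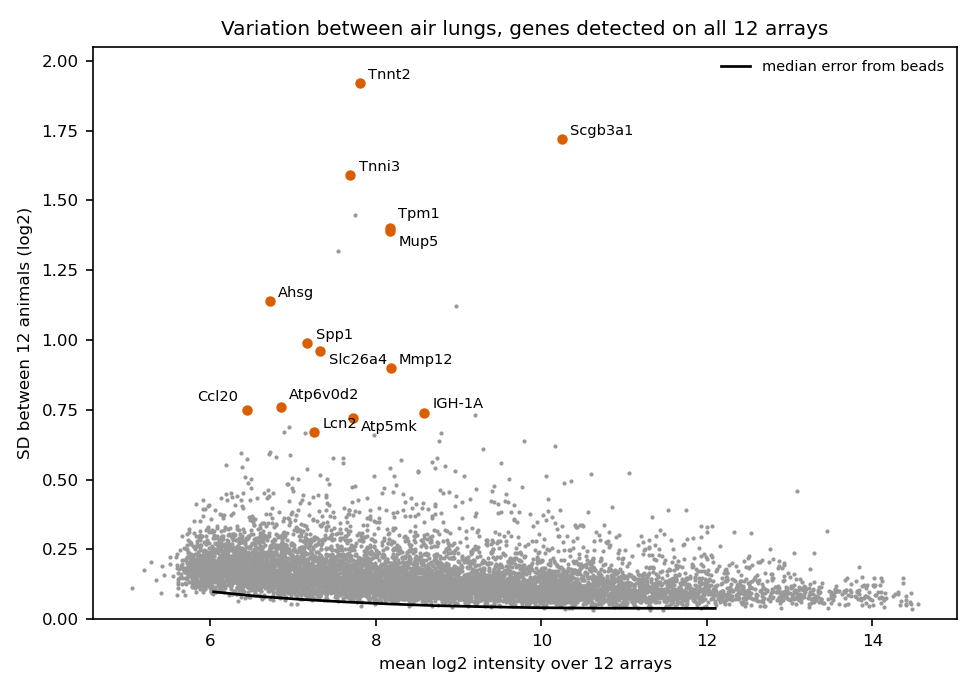
SD between the 12 air rats (vertical axis, log2) against mean log2 intensity (horizontal axis) for the 8932 genes detected on all arrays; each grey point is a gene, the black line is the median bead error in 10 bins of brightness, and orange points are the 14 named genes of largest SD. Tnnt2 at 1.92 and Scgb3a1 at 1.72 stand far above the median of 0.137.

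The lists had different SDs, which also depend on brightness. The 82 ribosomal protein genes detected on all arrays had a median SD of 0.099, the 56 oxidative phosphorylation subunits 0.100, and the 12 type 2 cell genes 0.127, all under the 0.137 of all genes. The 12 inflammatory mediator genes had a median SD of 0.443, and 8 of them were above the 95th percentile of all genes. That list was drawn up with the response to silica in this series known, so its spread is given only as a description. The 12 interferon-induced genes had a median of 0.221. In whole tissue, fewer cells of a type and less RNA per cell cannot be told apart. Single rats stood out across all genes: rat 138 was the highest of the 12 in 18.9% of genes and the lowest in 13.8%. Among the 50 genes of largest SD, rat 90 was highest in 16 and rat 91 in 13, while rat 108 was lowest in 17. Over all genes, rat 90 was highest in 8.35% and rat 91 in 11.7%, and rat 108 was lowest in 9.99%. Many of the 50 belong to the same co-varying groups described below, so they are not separate observations of a rat.

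Heart muscle genes were among those of largest SD. Of 12 on the list, 3 were detected on all arrays, namely Tnnt2, Tnni3 and Pln, the last with an SD of 0.50. Tnnt2, cardiac troponin T of the thin filament, ran from 5.58 (rat 92) over a median of 7.33 to 10.37 (rat 91), a 27.6-fold range, with an SD of 1.92. Its raw intensity ran from 85.9 to 1520. Values were 10.37, 10.33, 10.05, 9.56 and 8.96 in rats 91, 90, 107, 139 and 108, and at most 7.45 in the other 7 rats. Tnni3, cardiac troponin I, ran from 5.78 (rat 92) over 6.92 to 9.95 (rat 90), with an SD of 1.59. The same 5 rats were the highest, at 8.51 to 9.95, and the other 7 lay at 5.78 to 6.93. Tpm1, tropomyosin, which smooth muscle also uses, ran from 6.69 (rat 140) over 7.54 to 10.09 (rat 90), with an SD of 1.40. No identifier run was uniformly high: rats 90 and 91 of the first run were among the highest, and rat 92 of the same run was the lowest for Tnnt2 and Tnni3.

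Across the 12 rats the genes most like Tnnt2 were Tpm1 (r = 0.991), Tnni3 (0.986) and Atp2a2 (0.917), the calcium pump of the sarcoplasmic reticulum. Pln, phospholamban, which restrains that pump, was the third nearest gene to Tnni3 (r = 0.951). The group of 7 co-varying genes defined below, of which Tnnt2, Tnni3 and Pln were on the heart list, also held Sh3bgr and Ankrd1, a stretch-responsive repeat protein of muscle. Myh6, the alpha myosin heavy chain, and Myl7, the atrial light chain, were detected on 8 arrays, those of rats 89, 90, 91, 105, 106, 107, 108 and 139. Myh6 ran from 4.45 (rat 137) to 11.30 (rat 90), and Myl7 from 4.53 (rat 138) to 11.23 (rat 91). Both were not above background in rats 92, 137, 138 and 140. Nppa, Actc1, Casq2 and Myh7 were not above background on any array, which cannot be read as absence. Ckm, muscle creatine kinase, is on the skeletal muscle list and is named here after its values were seen. It was detected in the 5 rats of highest Tnnt2 only.

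The promoters of the cardiac troponins are shown because both genes are among the 3 of largest SD and move together. They are RefSeq sequences of assembly GRCr8, from 250 bases before to 50 after the annotated start. Tnnt2 is at chr13:49818873-49819172 and Tnni3 at chr1:78342321-78342620, both on the plus strand. Capitals mark AGATAA, or TTATCT on the other strand, the core bound by GATA factors, and in Tnnt2 also CATTCC, or GGAATG, known as the MCAT element.
Tnnt2: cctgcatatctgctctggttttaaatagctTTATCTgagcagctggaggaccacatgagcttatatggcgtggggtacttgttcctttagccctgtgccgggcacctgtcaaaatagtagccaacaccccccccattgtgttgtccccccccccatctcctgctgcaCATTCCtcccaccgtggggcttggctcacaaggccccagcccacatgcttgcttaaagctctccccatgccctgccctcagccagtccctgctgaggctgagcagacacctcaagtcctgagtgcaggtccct
Tnni3: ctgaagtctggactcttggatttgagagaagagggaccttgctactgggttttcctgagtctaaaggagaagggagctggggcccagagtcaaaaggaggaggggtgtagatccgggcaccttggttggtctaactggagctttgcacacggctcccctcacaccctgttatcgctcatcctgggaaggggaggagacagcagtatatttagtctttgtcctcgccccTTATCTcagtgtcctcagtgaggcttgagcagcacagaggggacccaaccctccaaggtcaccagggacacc
Of the 7 co-varying genes with the troponins, 5 had a promoter in the table. AGATAA stood in 2 of them, Tnnt2 and Tnni3, against 11.6% of all 33469 promoters, and CATTCC in 2, Tnnt2 and Tpm1, against 14.2%. The TATA motif TATAAA, the E-box CACGTG and the receptor motif AGAACA, also searched on both strands, were in none of the 5, against 14.2%, 6.42% and 20.7% of all promoters. CACGTG reads the same on both strands, and no motif is part of another. CATTCC was not particular to the troponin group. Among other groups described below, it stood in 5 of 9 promoters around Agr2 and 5 of 25 in the group of 36 genes. It stood in 1 of 5 around Mup5 and in 2 of 6 in the group with Fkbp5. AGATAA stood in 1 of the 5 around Mup5 and in none of the others. A match describes letters in a window and not a binding site.

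Genes that vary together were sought among the 300 genes of largest SD, joined by average linkage where the mean correlation reached 0.7. This gave 11 groups of at least 6 genes, which held 217 of the 300. The groups were built from these values, so the correlations within them are a description. The last gene inside the 300 and the first outside both had an SD of 0.325. Placeholder names (LOC or RGD numbers) made up 40.7% of the 300, against 10.7% of all genes detected on the 12 arrays. None of 44 relations between a group's mean profile and detected genes, median intensity, background or highest intensity of the array passed an adjusted p of 0.05 (100000 permutations, 2-sided). The nearest was a group of 8 genes around Fzd9 against the highest intensity, at r = −0.81, rho = −0.81 and adjusted p = 0.064.

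**Figure D3:**
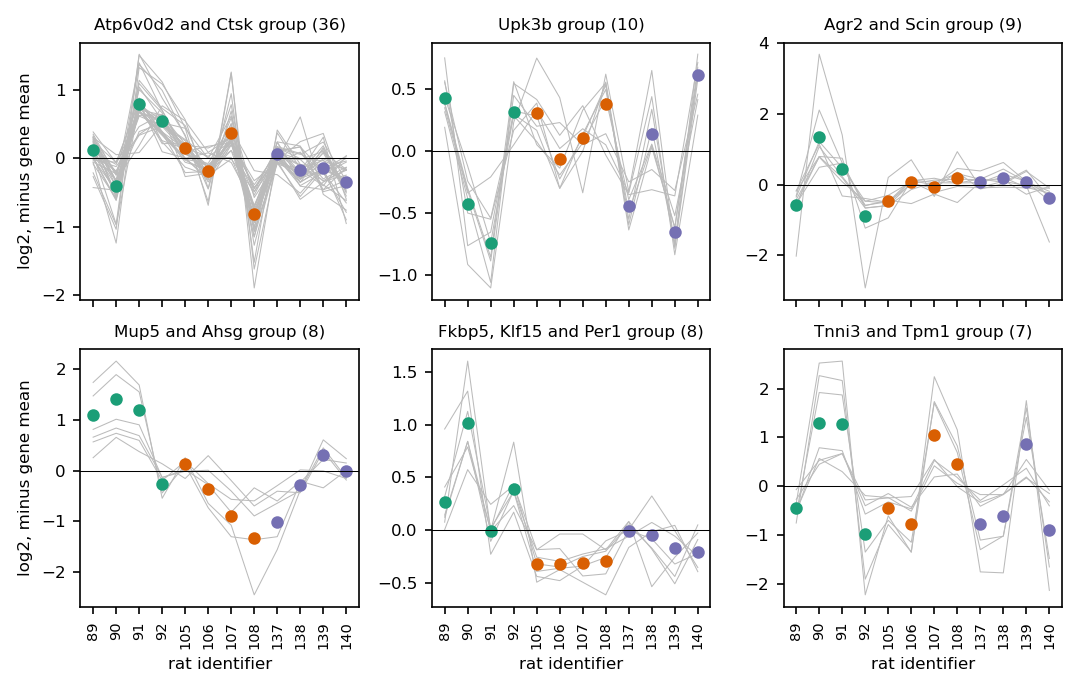
Log2 intensity minus the gene's mean (vertical axis) in each air rat (horizontal axis, by identifier) for 6 groups of co-varying genes; grey lines are named genes, and coloured points are the group mean, with green for rats 89 to 92, orange for 105 to 108 and violet for 137 to 140. Numbers in brackets are genes. Each group has its own order of rats.

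The largest group with mostly named genes held 36 genes, with a median pairwise r of 0.82. Of these, 9 were on a list: 5 inflammatory mediators and 1 each of alveolar macrophages, neutrophils, platelets and the clock. Spp1, osteopontin, a secreted matrix protein of activated macrophages, ran from 5.55 (rat 108) over 7.01 to 8.67 (rat 91), with an SD of 0.99. Slc26a4, the anion exchanger pendrin, ran from 5.44 (rat 108) over 7.41 to 8.85 (rat 91), a 10.6-fold range. Mmp12, the macrophage elastase, ran from 6.66 (rat 108) over 8.10 to 9.50 (rat 91). Rats 91, 92 and 107 were the 3 highest for Spp1, Slc26a4 and Mmp12 alike, and rat 108 the lowest. Lcn2, an iron-sequestering protein, had an SD of 0.67, Cd177, a surface protein of neutrophils, 0.64, and Retnla, a marker of alternatively activated macrophages, 0.62. The same group held Ctsk, Ctsd and Atp6v0d2 of lysosomes, Trem2 and Gpnmb of lipid-handling macrophages, Cd68, the chemokines Ccl2, Ccl3 and Pf4, the interleukin 1 antagonist Il1rn and Cybb, the catalytic subunit of the phagocyte oxidase. Runs differed little in it: 19.9% of the variance of its mean profile lay between runs, close to the 18.2% that 3 random groups of 4 give on average.

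Of 8 alveolar macrophage markers, 6 were detected on all arrays, with a median SD of 0.236, and Cd68 among them was also in the group of 36. Cd68 ran from 10.33 (rat 108) to 11.43 (rat 91), and Abcg1, a lipid exporter, from 11.61 (rat 108) to 12.34 (rats 91 and 92). Marco, a scavenger receptor, was not above background on any array, which cannot be read as absence. Rat 108 was lowest for Cd68, Fabp4, Abcg1, Pparg and Itgax, and rat 91 highest for Cd68, Pparg, Itgax and Mcemp1. The order was not shared by all: Mrc1, the mannose receptor, was lowest in rat 138 at 8.86 and highest in rat 92 at 9.79, and Fabp4, a fatty acid carrier, was highest in rat 138 at 10.16. Mcemp1 was lowest in rat 139 at 8.94. S100a8, a calcium-binding protein of neutrophils, had another order and ran only from 9.99 (rat 105) to 10.56 (rat 106).

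A group of 9 genes around Agr2 and Scin had a median r of 0.78, and 2 of them, Scgb3a1 and Cyp2f4, were on the airway secretory list. Scgb3a1, a secretoglobin of airway secretory cells, ran from 7.32 (rat 92) over 10.28 to 13.94 (rat 90), a 98.3-fold range and the widest among genes detected on all arrays. Rat 91 followed at 11.65, and rat 89 of the same run was the second lowest at 8.22. Cyp2f4, a cytochrome P450 of club cells, ran from 7.55 (rat 92) to 9.58 (rat 90), and Ccl20, a chemokine of airway epithelium, from 5.84 (rat 92) to 8.55 (rat 90). Agr2, a folding factor of mucus-producing cells (r = 0.885), and Scin, an actin-severing protein (0.875), were the genes most like Scgb3a1. Pon1, Pi16, Acsm1 and Cxcl13 completed the group. Without rat 90 the SD of Ccl20 fell from 0.75 to 0.37. Scgb3a2, another secretoglobin, had an SD of 0.27, and Scgb1a1 lies at the top of the scale, where a spread cannot be read. Bpifa1, a secreted defence protein of the upper airways, named after its values were seen, was detected on 8 arrays and ran from 4.64 (rat 140) to 10.26 (rat 90).

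Ciliated cell genes moved together over a narrow range. Of 11 measured, 10 were detected on all arrays, with a median pairwise r of 0.71, against 0.00 over all genes. Rsph1 of the radial spokes ran from 8.10 (rat 92) to 9.09 (rat 138), Tekt4, a filament protein of cilia, from 8.04 (rat 92) to 8.98 (rat 138), and Ccdc113 from 8.51 (rat 92) to 9.34 (rat 138). Rat 92 was thus the lowest and rat 138 the highest for these 3 genes.

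A group of 8 genes around Mup5 and Ahsg had a median r of 0.93. None of the 8 was on a list, and 2 carried placeholder names. Mup5, a major urinary protein, ran from 5.72 (rat 108) over 8.09 to 10.32 (rat 90), a 24.3-fold range. Ahsg, fetuin A, ran from 5.36 (rat 108) over 6.66 to 8.61 (rat 90). The group also held Hrg, Hpx and Apoc1, which like Ahsg encode plasma proteins made by the liver, and Cyp2d2, a cytochrome P450. Rats 89, 90 and 91 were the 3 highest for Mup5, at 9.90, 10.32 and 9.85, while rat 92 of the same run was at 7.62. Of the group's mean profile, 55.0% of the variance lay between runs, and none of its named genes passed the test among runs (limma, adjusted p = 0.101 for Apoc1 to 0.368 for Cyp2d2). All 8 measured genes of the plasma protein list were detected in rats 89, 90 and 91, and 4 in rat 92. The numbers were 7, 3, 3 and 2 in rats 105 to 108, and 2, 5, 5 and 6 in rats 137 to 140. Over all 21792 genes, 9434 to 10840 were detected on an array, with the most in rat 108. Alb, albumin, named after its values were seen, was detected on 10 arrays and ran from 4.69 (rat 108) to 9.19 (rat 90). Fgg, the fibrinogen gamma chain, stood apart from them, at 11.71 to 12.27.

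A group of 8 genes held 2 of the glucocorticoid-induced list, Fkbp5 and Tsc22d3, and 1 of the clock list, Per1. Fkbp5, a co-chaperone of that receptor, ran from 9.18 (rat 108) over 9.71 to 11.40 (rat 90), and rat 92 was the second highest at 10.63. Tsc22d3, an anti-inflammatory leucine zipper protein, ran from 11.70 (rat 106) over 11.92 to 12.84 (rat 90). Klf15, a transcription factor of metabolic genes, ran from 8.04 (rat 105) over 8.34 to 9.56 (rat 90). Per1, a clock gene that glucocorticoids also induce, ran from 7.09 (rat 139) over 7.40 to 8.92 (rat 90), and rat 89 came second at 8.56. C13h1orf116, Foxo3 and Map3k6 were the other named members. Rats 105 to 108 were uniformly low in the mean profile, at −0.32, −0.32, −0.31 and −0.29, and 65.5% of its variance lay between runs. No single member passed the test among runs (adjusted p = 0.14 for Fkbp5 and 0.117 for Klf15). Zbtb16, a strongly steroid-induced repressor named after its values were seen, was detected in rats 89, 90, 91 and 92 and in no rat of the other runs. It stood at 5.40, 7.75, 6.09 and 7.41 there and at 4.50 to 5.01 elsewhere. Such separation was not rare. Of the 8932 genes detected on all arrays, 461 had no overlap between rats 89 to 92 and rats 105 to 108. Between rats 89 to 92 and the remaining run, 746 had none. Separation from both runs at once was not counted. Zbtb16 was picked for its values, so it is no result about the runs.

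Other steroid-responsive genes had narrower ranges. Sgk1, a kinase of ion transport, ran only from 12.33 to 12.56, and Ddit4, an inhibitor of growth signalling, from 8.38 to 9.04. The 9 clock genes detected on all arrays had a median pairwise r of −0.01. Nr1d1, a clock repressor, ran from 9.05 (rat 89) to 10.09 (rat 91), Per2 from 8.41 to 9.19 and Bmal1 from 6.41 to 6.86. The promoter of Klf15 (GRCr8, chr4:124522765-124523064, plus strand) is shown as 1 of the 6 matched promoters of the group of 8, with capitals for CACGTG, the E-box read by clock factors.
Klf15: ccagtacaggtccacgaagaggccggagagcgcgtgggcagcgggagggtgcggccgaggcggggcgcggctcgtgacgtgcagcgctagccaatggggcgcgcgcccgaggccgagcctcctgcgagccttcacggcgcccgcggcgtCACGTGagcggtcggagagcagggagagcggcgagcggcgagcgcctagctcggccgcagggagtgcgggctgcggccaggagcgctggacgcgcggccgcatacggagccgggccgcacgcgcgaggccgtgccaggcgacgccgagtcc
CACGTG stood in 1 of the 6, the promoter shown, against 6.42% of all 33469 promoters. AGAACA, a part of the site bound by the glucocorticoid receptor, stood in none of the 6, against 20.7%. With so few promoters, these counts are no result about the group. AGAACA stood in 5 of 9 promoters around Agr2, 3 of 5 around Mup5 and 5 of 25 in the group of 36 genes. The window of 300 bases leaves out more distant sequence.

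A group of 10 genes around Upk3b had a median r of 0.83, and 2 of them, Upk3b and Msln, were on the mesothelium list. Krt19, a keratin and the third gene of that list detected on all arrays, was not in the group and ran from 12.66 (rat 90) to 12.93 (rat 138). Upk3b, a mesothelial membrane protein, ran from 7.97 (rat 90) over 8.89 to 9.52 (rat 140). Msln, mesothelin, ran from 9.29 (rat 139) over 10.15 to 10.71 (rat 140). Prph, a filament protein of nerve cells, ran from 6.04 (rat 91) to 7.90 (rat 105). Slc51a, Aldh1a2, Gpm6a, Ptgds and Inhca completed the named members, with Ahsp, a chaperone of alpha haemoglobin in red cells. Ahsp ran from 8.21 (rat 91) to 9.69 (rat 140). Rats 90, 91, 137 and 139 were the 4 lowest for both Upk3b and Msln.

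The largest group had 63 genes, of which 39 carried placeholder names. Rbbp7, a histone-binding protein, Ier5 and Myl12b, a myosin light chain, were central to it. Atp5mk, a small subunit of ATP synthase, had the largest SD of its named members, 0.72, and ran from 6.57 (rat 91) over 7.83 to 8.54 (rat 92). The named members include pseudogene copies, Tpt1-ps2, Eef1a1-ps13 and Hmgb1-ps17, whose probes may also bind the parent transcripts. A second group had 42 genes, 40 of them placeholders, and Pnpla8 and Psmc6 were its named members. It was lowest in rat 138, at −0.70, and rat 91, at −0.68. A group of 12 genes around Golph3, Cav1 and Msn was low in rat 138 alone, at −0.84 against −0.34 for the next lowest. Cav1, the caveolae protein of type 1 and endothelial cells, ran from 8.82 (rat 138) over 9.76 to 10.07 (rat 91). Lamp3 had 2 entries in the table that differed: the brighter had an SD of 0.15, and the dimmer, in this group, 0.34.

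A group of 14 genes separated the runs most, with 69.5% of the variance of its mean profile between them. Usp18 and Igtp, both interferon-induced, belonged to it, together with Timp3, a metalloprotease inhibitor, Clic4, Arhgap1, Angpt1 and Kit. Igtp ran from 6.80 to 7.25 in rats 89 to 92, from 6.04 to 7.23 in rats 105 to 108 and from 6.04 to 6.52 in rats 137 to 140. The group's profile followed the number of detected genes (r = 0.73, rho = 0.76, adjusted p = 0.073) and the background level of the array (r = −0.71). These correlations did not pass the threshold over the 44 relations. The part of array quality in this group was not tested further.

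The question of whether the air rats differ between identifier runs was tested gene by gene with limma's moderated F test on all 8932 genes. Of these, 17 (0.19%) passed a Benjamini-Hochberg adjusted p of 0.05, and 1079 (12.1%) had an unadjusted p under 0.05. Over all genes the runs held 23.3% of the variance on average, where 18.2% is the average without any difference. Of the 50 genes of largest SD, 1 passed, the placeholder gene LOC317070. Between pairs of runs, 30 genes (0.336%) differed between rats 137 to 140 and 89 to 92, of which 11 (0.123%) were higher and 19 (0.213%) lower in the former. Between rats 105 to 108 and 89 to 92, 4 genes (0.0448%) differed, all higher in the former. Between rats 137 to 140 and 105 to 108, 5 genes (0.056%) differed, all lower in the former. These counts depended on single arrays: without rat 89 the 30 became 2, and without rat 140 it became 46. The 17 became 8 to 19 when 1 array was left out.

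Matrix genes were among those that differed. Eln, elastin, the elastic fibre protein of alveolar walls and arteries, stood at 11.71, 11.48, 11.23 and 11.61 in rats 89 to 92. In rats 105 to 108 it stood at 12.27, 12.20, 12.05 and 12.41, and in rats 137 to 140 at 11.49, 11.45, 11.35 and 11.75. All 4 rats of the middle run were above the other 8 (limma F, adjusted p = 0.0126). The difference from rats 89 to 92 was 0.73 ± 0.11 (SE, adjusted p = 0.0203), and rats 137 to 140 lay 0.72 below rats 105 to 108 (adjusted p = 0.0170). Col1a1, a chain of type I collagen, had means of 10.01 ± 0.28 (SD, n = 4), 10.64 ± 0.08 and 10.09 ± 0.10 in rats 89 to 92, 105 to 108 and 137 to 140 (limma, adjusted p = 0.038). The 4 rats 105 to 108 were again the highest, at 10.54 to 10.74. It passed in 2 of the 12 fits that left out 1 array. Of the 14 fibroblast and matrix genes, 2 passed, where 0.19% of all genes did, and Col5a1 missed at adjusted p = 0.0598. Dcn, Lum and Fn1 showed no such order, with adjusted p of 0.986, 0.536 and 0.56.

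Other genes passed with different orders of the runs. Adgrl1, an adhesion receptor, stood at 9.04, 9.08, 8.98 and 9.12 in rats 89 to 92, at 9.53 to 9.60 in rats 105 to 108 and at 9.45 to 9.70 in rats 137 to 140 (limma F, adjusted p = 0.00494). Rats 89 to 92 were all below the other 8. Scn3b, a beta subunit of sodium channels, had means of 10.49 ± 0.15, 11.34 ± 0.08 and 10.73 ± 0.23 (SD, n = 4; limma, adjusted p = 0.00526), again with rats 105 to 108 above all others. Timp3 had means of 8.04 ± 0.18, 7.61 ± 0.24 and 7.21 ± 0.15 (limma, adjusted p = 0.0269). Arhgap1, which switches off small GTPases, was lower in rats 137 to 140, at 7.80 to 8.13, than in the other 8, at 8.28 to 8.89. An immunoglobulin heavy chain variable gene (Ighv) stood at 7.02 to 7.34, 7.30 to 7.54 and 6.13 to 6.68 in the 3 runs. Copz1 of the vesicle coat, Trappc9, Cyth3, Neurl2 and Dgcr2 also differed, each with its lowest mean in rats 137 to 140, and the protocadherin Pcdha4 was highest in rats 105 to 108. Several of these calls depended on single arrays: of the 12 fits that left out 1 array, Copz1 passed in 10, Cyth3 in 7, Timp3 and Trappc9 in 6, Neurl2 in 5, Dgcr2 in 4, Arhgap1 in 3 and Pcdha4 in 2. The remaining 4 carried placeholder names. Adgrl1, Ighv, Scn3b, Eln and 2 of the placeholder genes kept an adjusted p under 0.05 in all 23 alternatives.

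**Figure D4:**
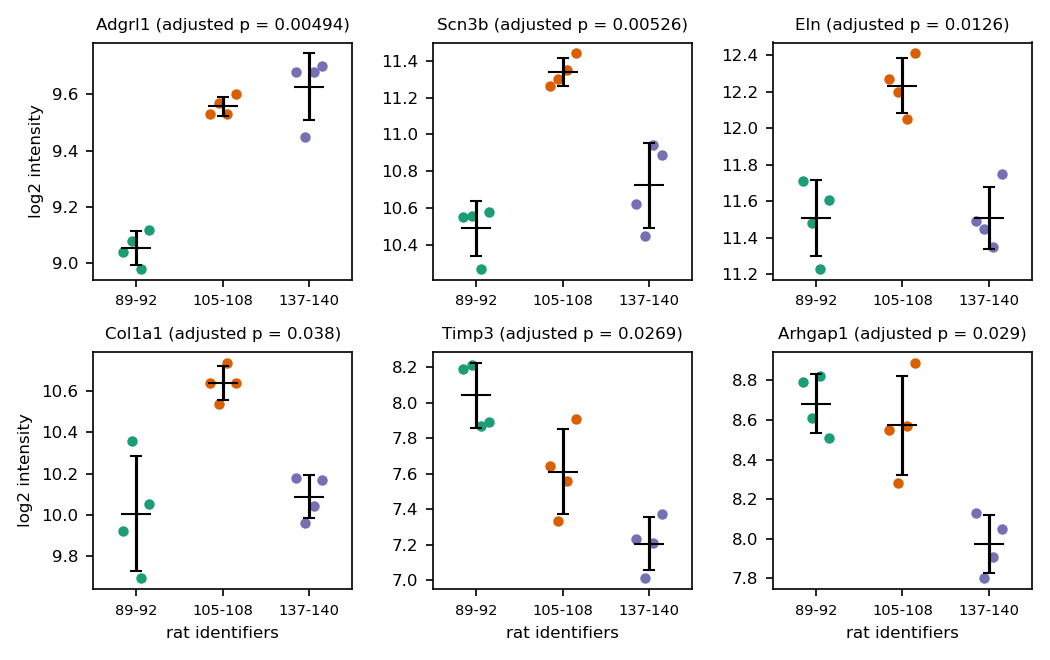
Log2 intensity (vertical axis) of 6 of the 17 genes that differed among the identifier runs (horizontal axis); points are the 4 rats of a run, horizontal bars the mean and error bars the SD. Eln, Col1a1 and Scn3b were highest in rats 105 to 108, Adgrl1 was lowest in rats 89 to 92, and Timp3 and Arhgap1, which passed in 6 and 3 of the 12 fits that left out 1 array, were lowest in rats 137 to 140.

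Correlations between animals were computed for pairs of genes with related roles. Of 16 pairs listed, 8 had both genes detected on all arrays, and 4 of these passed an adjusted p of 0.05 over the 8 (100000 permutations, 2-sided). The pairs were listed with earlier results of these data known. Fkbp5 and Tsc22d3 rose and fell together (r = 0.97, adjusted p = 0.00012, rho = 0.82, adjusted p = 0.0045). Without the 2 rats farthest in Fkbp5, r was 0.82, and with runs centred on their means 0.94. A run of 4 rats is too small for a correlation of its own. Col1a1 and Col3a1, chains of the main fibrillar collagens, correlated at r = 0.92 (adjusted p = 0.00013, rho = 0.90, adjusted p = 0.0011), at 0.87 without the 2 farthest rats and at 0.88 with centred runs. Slc26a4 and Lcn2 correlated at r = 0.91 (adjusted p = 0.00012, rho = 0.92, adjusted p = 0.00064), at 0.83 without the 2 farthest and at 0.91 with centred runs.

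The immediate early genes Fos and Egr1, which cells switch on within minutes of a stimulus, correlated at r = 0.88 (adjusted p = 0.0049, rho = 0.71, adjusted p = 0.025), at 0.85 with centred runs. The relation rests on rats 105 and 106, with Fos at 8.30 and 8.16 and Egr1 at 9.04 and 9.15, since r was 0.41 without the 2 rats farthest in Fos. Fos ran from 6.48 to 7.23 in the other 10 rats. Of the pairs that did not pass, 3 are given. Cd79b of B cells and Cd3e of T cells gave r = 0.26 (permutation test, adjusted p = 0.47, rho = 0.09, adjusted p = 0.78). With runs centred on their means, r was 0.76 and passed (exact permutation within runs, 2-sided, adjusted p = 0.0073), a test chosen after seeing the data. Sftpc and Ager gave r = −0.05 (permutation test, adjusted p = 0.88, rho = 0.15, adjusted p = 0.74) over ranges of 13.86 to 14.19 and 12.89 to 13.20. Sftpc lies near the top of the scale, where the scaling bounds the spread, so neither a relation nor its absence can be read from this pair. Alas2 and Slc4a1, both of maturing red cells, gave r = 0.38 (permutation test, adjusted p = 0.29, rho = 0.33, adjusted p = 0.39).

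**Figure D5:**
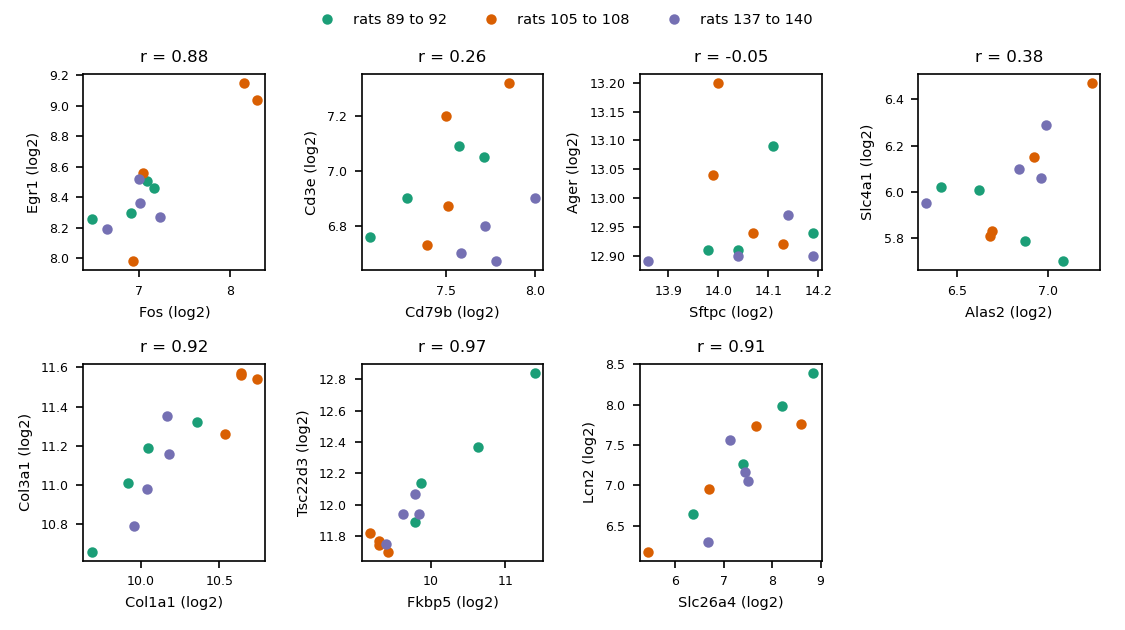
Log2 intensity of 7 gene pairs in the 12 air rats, 1 panel per pair with the gene names on the axes; points are rats coloured by identifier run, and Pearson's r stands above each panel. Fkbp5 with Tsc22d3, Col1a1 with Col3a1 and Slc26a4 with Lcn2 follow a line, while the r of Fos with Egr1 comes from 2 rats at the upper right.

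The 10 T cell genes detected on all arrays had a median SD of 0.190 and a median pairwise r of 0.62. Cd3g, a chain of the T cell receptor complex, ran from 9.59 (rat 90) to 10.25 (rat 106), and Zap70, its kinase, from 6.20 (rat 90) to 6.99 (rat 106). Jchain, which joins secreted antibodies, ran from 9.78 to 10.47. An immunoglobulin heavy chain entry, IGH-1A_PREDICTED, ran from 7.26 (rat 91) over 8.78 to 9.76 (rat 140), with an SD of 0.74. The 7 natural killer genes had a median SD of 0.138, and Gzma, a granule protease, was highest in rat 89 at 10.80. Interferon-induced genes had a median pairwise r of 0.61. Mx1, an antiviral GTPase, ran from 9.01 (rat 90) to 9.98 (rat 107), and Oasl from 8.17 (rat 139) to 9.16 (rat 108). Thrb, the thyroid hormone receptor beta, ran from 6.87 over 8.30 to 8.63, low in rats 90, 138 and 139, at 6.87, 6.99 and 7.04.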

How the data were processed

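RNA of 12 air-exposed rat lungs was measured on bead arrays. The deposited table holds a mean bead intensity per gene and array, neither background-subtracted nor normalized judging from its values. It also holds deposited detection p-values, deposited bead standard errors (intensity units) and numbers of beads, which are deposited counts of beads behind each mean. The authors' deposited log2 table, normalized by steps whose details are not given in the sources used here (the notes name lumi and limma), was an alternative. The submitters' processing notes list BeadStudio for this work. No genome build is given in the sources used here.

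Intensities were corrected with limma 3.58.1 in R 4.3.3: control mean and SD inferred from the detection p-values of 21109 genes with 1 probe, normexp with an offset of 16, log2, and quantile normalization over the 12 arrays. Control means were 51.34 to 74 and SDs 7.65 to 13.46. Genes with a detection p under 0.01 on all 12 arrays were kept. Runs were compared with lmFit and eBayes (intensity trend, moderated F, Benjamini-Hochberg over 8932 genes). The test was also run on simulated data with independent noise in each gene. Such data lack the co-variation described above, so they do not show how the test behaves here. Correlations used 100000 permutations (numpy 2.4.6, scipy 1.17.1). Several probes or rows of 1 gene were represented by the brightest row in lists. Names were updated through RefSeq (GRCr8): 9918 matched a symbol, 4817 a synonym and 1586 a gene identifier, 5462 were kept, and 9 were calendar dates. Placeholder names were carried by 5360.

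Genes were named by rule: the 20 brightest, the 20 of largest SD, up to 3 of largest SD per list, the 12 smallest F p-values, the listed pairs, the central and listed members of each group of co-varying genes, and the 3 genes nearest to each of the 5 of largest SD. Others are marked as named after their values were seen or are listed members. The sample group, the 34 lists and the pairs were chosen with earlier results of these data known. Alternatives were other background corrections and offsets, scalings, detection filters, eBayes settings and leaving out each array. Centring the pairs on the runs was chosen after seeing the data. One of the computed pairs is not reported here. Nothing says more about how the rats were grouped, so p-values measure the spread between these arrays, and the number of arrays limits precision.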

Additional observations from a re-analysis of the deposited data

Results flagged for a closer look

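Among the genes and array measures compared by run, 60 groups of 4 rats were checked for a rat far from the other 3 by Dixon's ratio, and 6 exceeded its 95% critical value. Chance does so in about 1 of 20 groups. In rats 137 to 140, Adgrl1 was at 9.45 in rat 138, with the others at 9.68 to 9.70. In rats 105 to 108, Ighv was at 7.54 in rat 107, with the others at 7.30 to 7.32. In rats 89 to 92, Scn3b was at 10.27 in rat 91, with the others at 10.55 to 10.58. The placeholder gene LOC317070 exceeded it in 2 runs. It was at 8.75 in rat 105, against 8.32 for the next, and at 9.01 in rat 139, against 8.48 for the next. The background level inferred for the array of rat 139 was 74.0 intensity units, against 56.91 to 58.91 in the other 3 rats of its run, and that array had the fewest detected genes, 9434.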

How the results depend on the processing

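The count of genes that differed among the 3 identifier runs, 17, was 11 with limma's default neqc call, 11 with no filter on detection and 72 with array weights, and 8 to 19 when 1 array was left out (8 to 11 without rat 89, 90, 105, 137, 138, 139 or 140). The other alternatives gave 15 to 23. For rats 105 to 108 against 89 to 92, the count of 4 became 2 with median centring and 13 with array weights, and ran from 1 to 7 when 1 array was left out (2 without rat 105, 1 without rat 106 or 108, 7 without rat 139 or 140). For rats 137 to 140 against 89 to 92, the count of 30 became 15 with no filter and 109 with array weights, and ran from 2 to 46 without 1 array (2 without rat 89, 9 to 14 without rat 91, 137, 138 or 139, 46 without rat 140). For rats 137 to 140 against 105 to 108, the count of 5 became 17 with array weights and ran from 1 to 8 without 1 array (1 to 3 without rat 105, 106, 107, 108, 137 or 138, 8 without rat 90). Array weights give arrays unequal weight and were the setting with the largest counts in all 4 comparisons; the cause was not tested. The median SD of 0.137 was 0.094 with the default neqc call, 0.117 with an offset of 50, 0.114 with no background correction, 0.098 in the authors' log2 table, 0.146 for genes detected on at least 6 arrays and 0.114 with no filter; it ran from 0.129 to 0.139 without 1 array. Of the 50 most variable genes, 29 stayed with the default neqc call, 26 with detection on at least 6 arrays and 17 with no filter, and 43 to 49 without 1 array. The 4 correlated pairs each kept an adjusted p under 0.05 (permutation tests) in every alternative, and their count stayed 4 when 1 array was left out. Looser detection filters also admit pairs that were not computed here, such as Myh6 with Myl7, so counts under those filters cover more pairs. With values centred on the identifier runs and permuted within them, an alternative chosen after seeing the data, the count was 5, since Cd79b with Cd3e moved from r = 0.26 to 0.76 (exact permutation test, adjusted p = 0.0073). The adjusted p-values of the 17 genes under the 23 alternatives rose above 0.05 in 92 cases. The test of the number of detected genes among runs gave p = 0.63 at a detection p under 0.05 (exact permutation test).

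No paired analysis was possible because the 3 runs of air rats share no replicate numbers, and the silica arrays, which share some, were not used. Dim genes limit what can be seen: in the dimmest of 10 bins the bead error was 0.098 beside an SD between animals of 0.184. With 4 rats in a run and 1 array per rat, run, animal and array effects cannot be separated further.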

Other observations

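The extreme rats differed from gene to gene. These genes were chosen after their values were seen. Rat 90 was the highest in Scgb3a1, Fkbp5, Mup5 and Tnni3, and among the lowest in Spp1, at 6.13, and Upk3b, at 7.97. Rat 91 was the highest in Tnnt2 and Spp1, and the lowest in Prph, at 6.04, and Col3a1, at 10.66. Rat 108 was the lowest in Spp1, Mup5 and Fkbp5, and the highest in Mx2, at 9.84, and Vwf, at 12.70. Over all genes detected on the 12 arrays, the first principal component held 21.1% of the variance between rats and the second 18.8%, with rat 91 at one end of the first (0.55) and rat 139 at the other (−0.47), and rat 138 alone at the end of the second (0.69). These are values from 1 array per rat, and no explanation of them was tested.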
